A study of Homo sapiens with 12 samples.

Results

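The genes described here are those of the human mitochondrial genome, in 2 T-cell acute lymphoblastic leukaemia (T-ALL) lines, HPB-ALL and KOPTK1. They were taken as every row of both deposited tables whose identifier carries a symbol that starts with MT-. This gave 37 of the 58288 genes, and they were also every row on chromosome M. They comprise 13 mRNAs, 2 rRNAs and 22 tRNAs.

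By the labels, each line gave 3 libraries from cells infected with pLKO.1 lentivirus carrying an shRNA against GFP (the control) and 3 from cells infected with the same vector carrying an shRNA against SHQ1, all kept in 2 μg/ml puromycin for 48 h. SHQ1 is a chaperone for the assembly of H/ACA ribonucleoproteins. Both lines are single established lines, so the libraries of a line are at most repeats within that line, and the p-values measure only the spread between them. Total RNA was depleted of rRNA before sequencing. The 6 library columns of each table are headed by numbers alone, 7 to 12 in HPB-ALL and 1 to 6 in KOPTK1. They could be placed with a line, because each table belongs to 1 line, but not with an shRNA. The comparison of SHQ1 shRNA with control was therefore not made, and each line is described over its 6 libraries, with knockdown and control together. Every comparison is between the lines, and the line, its table and any separate handling of its samples cannot be told apart.

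The libraries held 22884785 to 42842791 counts. The KOPTK1 libraries headed 1, 2 and 3 stood apart from those headed 4, 5 and 6: over 24726 genes, the correlation of log2(CPM + 1) with the HPB-ALL libraries was 0.972 to 0.980 for the former and 0.942 to 0.948 for the latter. For the 17 genes with a mean of at least 20 counts per 1000000 counts of the library (CPM) in KOPTK1 and at least 50 times the HPB-ALL mean, the median level was 40.8 to 43.3 CPM in libraries 4 to 6 and 22.7 to 25.0 CPM in libraries 1 to 3. It was 0.950 to 1.17 CPM in HPB-ALL libraries 10 to 12 and 0.0723 to 0.105 CPM in libraries 7 to 9. Another set held the genes with a mean of at least 20 CPM in HPB-ALL and at least 3 times the KOPTK1 mean. Their median level was 34.48 to 37.65 CPM in HPB-ALL, 18.82 to 19.35 in KOPTK1 libraries 1 to 3 and 4.095 to 4.299 in libraries 4 to 6. Libraries 1 to 3 thus lay between HPB-ALL and libraries 4 to 6 for both sets. Whether each library held RNA of 1 line alone was not tested, and the main fit counts libraries 1 to 3 as KOPTK1. The size of the differences in that fit rests on this placing. The comparisons between the lines were therefore also run without KOPTK1 libraries 1 to 3, and those values are given where they change a call or move a value by over 1.5 times, and for the main results. Each line has 3 libraries per shRNA, so libraries 1 to 3 may be all those of 1 shRNA in KOPTK1. That fit may then set 1 shRNA in KOPTK1 against both in HPB-ALL, which could not be checked. The same limit holds where HPB-ALL libraries 10 to 12 were also left out. SHQ1 itself was at 213 to 218 CPM in HPB-ALL libraries 7 to 9 and 140 to 149 CPM in libraries 10 to 12. It was at 134 to 141 CPM in KOPTK1 libraries 1 to 3 and 119 to 127 CPM in libraries 4 to 6. These values were not used to assign an shRNA to any library. All 10 T-lineage markers examined had a median of at least 1 CPM in both lines, with a summed level of 2479 to 2577 CPM in HPB-ALL and 2515 to 2614 CPM in KOPTK1. Of the 5 B-lineage markers, CD79A was at 40.3 to 45.9 RPKM (CPM per kilobase of gene length) in HPB-ALL and 5.87 to 24.6 in KOPTK1, and the defining gene PAX5 was at 0.0342 RPKM or less in every library.

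The mitochondrial genome is a small circle that lies in the mitochondria in many copies per cell. Both of its strands are transcribed into long RNAs that carry many genes, and most mRNAs and rRNAs are bordered by tRNAs, whose excision at both ends releases the RNAs between them. Its mRNAs encode core subunits of complexes I, III, IV and V of oxidative phosphorylation, and its rRNAs and tRNAs serve the ribosomes that translate them inside the organelle. Most mitochondrial mRNAs are polyadenylated, and mitochondrial mRNAs are among the most abundant RNAs of metabolically active cells.

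The genes are packed closely. Of the 36 pairs of neighbours along the chromosome, 25 touch or overlap. MT-ATP8 and MT-ATP6 share 46 bases, MT-ND4L and MT-ND4 share 7, and MT-ATP6 and MT-CO3 share 1. MT-TI and MT-TQ share 3 bases on opposite strands, and MT-TC and MT-TY share 1 base. A fragment that crosses such a border can belong to either gene. Of the per-library values of the 37 genes, 84.7% were not whole numbers, against 15.1% to 17.2% of all genes in a library. How reads were shared between genes or between places in the genome is not given in the sources used here. Reads of a gene on the minus strand could not be told apart from reads of the plus-strand RNA that runs opposite to it, since the library kit does not mark strand. The sequences below (GENCODE release 44, GRCh37, whose coordinates for these 37 genes equal those of the tables, hg38) show the members on which these limits and the largest differences bear. MT-TF and MT-TV border the rRNAs and were at or near 0, MT-TL1 and MT-TM differed most between the lines, and capitals in the other genes mark the bases that they share with a neighbour. The sequences of MT-TF, MT-TV, MT-TL1 and MT-TM have no capitals because they overlap no other gene.
MT-TF (chrM:577-647, plus strand): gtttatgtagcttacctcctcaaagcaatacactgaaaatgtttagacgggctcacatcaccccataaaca
MT-TV (chrM:1602-1670, plus strand): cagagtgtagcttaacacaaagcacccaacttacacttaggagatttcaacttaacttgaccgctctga
MT-TL1 (chrM:3230-3304, plus strand): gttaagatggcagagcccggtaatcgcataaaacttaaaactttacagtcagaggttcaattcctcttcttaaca
MT-TM (chrM:4402-4469, plus strand): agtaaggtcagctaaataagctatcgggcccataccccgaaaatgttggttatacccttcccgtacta
MT-TI (chrM:4263-4331, plus strand): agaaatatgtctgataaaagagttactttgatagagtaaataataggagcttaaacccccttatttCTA
MT-TQ (chrM:4329-4400, minus strand): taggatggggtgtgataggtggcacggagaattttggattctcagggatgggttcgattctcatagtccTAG
MT-TC (chrM:5761-5826, minus strand): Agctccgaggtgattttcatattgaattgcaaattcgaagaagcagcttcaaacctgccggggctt
MT-TY (chrM:5826-5891, minus strand): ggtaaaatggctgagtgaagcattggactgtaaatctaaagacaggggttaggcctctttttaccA
MT-ATP8 (chrM:8366-8572, plus strand): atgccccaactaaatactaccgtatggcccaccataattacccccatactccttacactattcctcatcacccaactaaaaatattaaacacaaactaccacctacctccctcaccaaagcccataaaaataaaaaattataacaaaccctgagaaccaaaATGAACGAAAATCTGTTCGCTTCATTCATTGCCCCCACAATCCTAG

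The 37 genes took a larger share of the counts in KOPTK1. The share of all counts was 1.417%, 1.281%, 1.260%, 1.392%, 1.441% and 1.358% in HPB-ALL libraries 7 to 12. It was 1.741%, 1.913% and 1.853% in KOPTK1 libraries 1 to 3 and 2.258%, 2.246% and 2.373% in libraries 4 to 6. Every KOPTK1 library lay above every HPB-ALL library, and the libraries that stood apart lay between the other KOPTK1 libraries and HPB-ALL. In these bulk samples, more cells with many mitochondrial RNAs and more mitochondrial RNA per cell cannot be told apart. Nearly all of these counts came from the mRNAs, at 1.23% to 1.41% of all counts in HPB-ALL and 1.71% to 2.33% in KOPTK1. The tRNAs took 0.0251% to 0.0317% and 0.0302% to 0.0383%, and these ranges overlapped. The rRNAs took 0.000128% to 0.00102% and 0.000193% to 0.000408%.

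Levels of single genes are given as RPKM, the CPM per kilobase of gene length, so that genes of different length can be compared. For the tRNAs, which are 59 to 75 bases long, the reads of 150 bases (by the methods) are longer than the gene, so a counted read can also hold unprocessed neighbouring RNA, and a mature tRNA could not be told apart from its precursor. By median RPKM, 12 of the 13 mRNAs were among the 50 highest of all genes in HPB-ALL and all 13 in KOPTK1. MT-CO1 was the highest of all genes in both lines.

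Complex I is the entry point of electrons from NADH into the respiratory chain, and 7 of its core subunits are encoded here. MT-ND4 was the highest of the 7, at 1368 to 1598 RPKM in HPB-ALL (median 1531) and 1991 to 2716 in KOPTK1 (median 2389). MT-ND5, the longest of the 37 genes, ran from 847 to 1001 RPKM in HPB-ALL (median 936) and from 1121 to 1482 in KOPTK1 (median 1341). MT-ND1 was at 832 to 1017 RPKM in HPB-ALL (median 923) and 1292 to 1764 in KOPTK1 (median 1577). These 3 were the complex I mRNAs with the highest medians in HPB-ALL. MT-ND2 was at 645 to 811 RPKM in HPB-ALL (median 741) and 1159 to 1845 in KOPTK1 (median 1529), where its median was above that of MT-ND5. MT-ND4L, which shares a transcript with MT-ND4, was at 544 to 679 RPKM in HPB-ALL (median 625.3) and 749 to 1112 in KOPTK1 (median 938). Per kilobase, its level was 39.5% to 42.5% of that of MT-ND4 in HPB-ALL and 37.6% to 41.0% in KOPTK1. The mRNA of MT-ND6 is the only one encoded on the minus strand, and it was at 468 to 661 RPKM in HPB-ALL (median 585) and 742 to 1169 in KOPTK1 (median 1015). MT-ND3 was the lowest mRNA of both lines, at 347 to 434 RPKM in HPB-ALL (median 389) and 449 to 679 in KOPTK1 (median 569). None of the 7 genes overlapped between the lines. Of all tested genes, 22.7% had every KOPTK1 library above every HPB-ALL library.

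MT-CYB encodes cytochrome b, the one mitochondrially encoded subunit of complex III, and was at 1001 to 1134 RPKM in HPB-ALL (median 1078) and 1292 to 1704 in KOPTK1 (median 1506). Complex IV, cytochrome c oxidase, passes the electrons to oxygen, and MT-CO1, MT-CO2 and MT-CO3 encode its catalytic core. MT-CO1 was at 1854 to 1972 RPKM in HPB-ALL (median 1912) and 2420 to 3087 in KOPTK1 (median 2723). MT-CO2 was at 1336 to 1541 RPKM in HPB-ALL (median 1465) and 1825 to 2515 in KOPTK1 (median 2143). The level of MT-CO3 was 1163 to 1299 RPKM in HPB-ALL (median 1251) and 1437 to 1921 in KOPTK1 (median 1649). For all of these genes, every KOPTK1 library was above every HPB-ALL library, which 22.7% of all tested genes had. Complex V is the ATP synthase, and MT-ATP6 and MT-ATP8, which encode subunits of its membrane part, lie on 1 transcript with the shared bases shown above. MT-ATP6 was at 1298 to 1598 RPKM in HPB-ALL (median 1433) and 1877 to 2708 in KOPTK1 (median 2344), and MT-ATP8 was at 737 to 891 RPKM in HPB-ALL (median 839) and 1120 to 1702 in KOPTK1 (median 1448). Per kilobase, MT-ATP8 was at 55.8% to 58.6% of MT-ATP6 in HPB-ALL and at 59.6% to 63.3% in KOPTK1. These ranges did not overlap, but the share among all pairs of genes was not counted.

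Within HPB-ALL the medians of the mRNAs spanned 4.92-fold, and in KOPTK1 4.79-fold. In HPB-ALL, MT-CO1 stood clear of the next gene, MT-ND4, and MT-ND3 stood clear below MT-ND6, in that the ranges over libraries did not overlap. MT-ND4, MT-CO2, MT-ATP6 and MT-CO3 followed each other with overlapping ranges, and MT-CO3 was clear of MT-CYB. From MT-CYB through MT-ND5, MT-ND1, MT-ATP8, MT-ND2 and MT-ND4L to MT-ND6, each gene overlapped the next. In KOPTK1, all neighbours in the order overlapped except MT-ND4L and MT-ND3. Without libraries 1 to 3, the KOPTK1 ranges narrowed, and MT-CO1 was clear of MT-ND4, MT-ATP6 of MT-CO2 and MT-CO2 of MT-CO3. The Spearman correlation of the 13 medians between the lines was 0.918, as a description across genes that share their transcripts and libraries. MT-ND2 moved from place 10 in HPB-ALL to place 7 in KOPTK1, and MT-ND5 moved from place 7 to place 10. Ranked by count, with no correction for length, MT-ND2 moved from place 9 to place 5, and MT-ND5 was at place 3 in both lines.

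The 2 rRNAs of the mitochondrial ribosome, which in unfractionated RNA are very abundant, were near 0 in these libraries made after rRNA depletion. MT-RNR2, the rRNA of the large subunit, had 265, 68.8, 35.3, 61.8, 36.2 and 36.0 counts in HPB-ALL libraries 7 to 12 and 27.8 to 74.0 in KOPTK1. MT-RNR1, that of the small subunit, had 157, 36.2, 19.5, 45.5, 32.0 and 31.0 counts in HPB-ALL libraries 7 to 12 and 19.0 to 52.0 in KOPTK1. HPB-ALL library 7 was the highest for both, and the other 11 libraries overlapped. Per kilobase, MT-RNR2 was at 0.0567% to 0.402% of the neighbouring MT-ND1 in HPB-ALL and at 0.0404% to 0.110% in KOPTK1. The rRNA content of the cells before depletion was not measured.

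The tRNA genes inside that stretch had fewer counts still. MT-TV, the valine tRNA between the 2 rRNA genes, had 0 to 1 counts in HPB-ALL libraries and 0 in all 6 KOPTK1 libraries, where a count of 0 allows up to 0.0831 to 0.131 CPM (3 counts). MT-TF, the phenylalanine tRNA before MT-RNR1, had 0 to 5.83 counts in HPB-ALL and 0 to 2.5 in KOPTK1. Both lines were at or about the floor of 3 counts, so no fold is given, and these 2 tRNAs did not pass the filter on low counts. MT-TL1, which starts on the base after MT-RNR2 ends, had 410 to 937 counts. The other 20 tRNAs were well above the floor, and all of them passed the filter.

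Of the tRNAs, those for tyrosine, cysteine and serine (UCN codons) had the highest level per kilobase in both lines. All 3 are encoded on the minus strand and border MT-CO1 or each other. MT-TY was at 536 to 616 RPKM in HPB-ALL (median 601) and 596 to 642 in KOPTK1 (median 622). MT-TC was at 483 to 588 RPKM in HPB-ALL (median 567.6) and 539 to 598 in KOPTK1 (median 572), so that for both genes the lines overlapped. MT-TS1 was at 299 to 539 RPKM in HPB-ALL (median 463) and 593 to 856 in KOPTK1 (median 708). Every KOPTK1 library was thus above every HPB-ALL library, which 22.7% of all tested genes had. At the lower end, beside MT-TV and MT-TF, MT-TW (tryptophan) was at 22.8 to 34.2 RPKM in HPB-ALL and 37.1 to 52.2 in KOPTK1, and MT-TD (aspartate) was at 37.8 to 54.5 and 36.1 to 47.0. The Spearman correlation of the 22 medians between the lines was 0.906.

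The comparison of the lines asks which genes differ in level between 2 T-ALL lines; the study itself compared SHQ1 knockdown with control within each. It used edgeR's quasi-likelihood test on the 6 libraries of each line, with Benjamini-Hochberg adjustment over all 27834 genes tested. A gene was called at an adjusted p-value under 0.05, and log2 differences are KOPTK1 minus HPB-ALL. The lines differed broadly, since 63.9% of all tested genes were called, 32.6% as higher in KOPTK1 and 31.3% as lower, with a median log2 difference of 0.02.

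All 13 mRNAs were higher in KOPTK1, against 32.6% of all genes tested, and their median log2 difference was 0.59. MT-ND2 rose most, by 1.05 on the log2 scale (SE 0.11, 2.07-fold, adjusted p = 2.9e-06 in edgeR). The smallest difference was that of MT-CO3, at 0.42 (SE 0.06, 1.33-fold, adjusted p = 7.1e-05 in edgeR). Between them lay MT-ATP8 at 0.79, MT-ND6 at 0.78, MT-ND1 at 0.74, MT-ATP6 at 0.69, MT-ND4 at 0.65, MT-ND4L at 0.59, MT-CO2 at 0.57, MT-ND3 at 0.54, MT-CO1 at 0.51, MT-ND5 at 0.50 and MT-CYB at 0.48, with standard errors of 0.06 to 0.11. Complex I thus held both the largest difference and, in MT-ND5, one of the smaller ones. All 13 had every KOPTK1 library above every HPB-ALL library in CPM, which 22.7% of all tested genes had. Without KOPTK1 libraries 1 to 3, all 13 were again called higher, against 34.2% of all genes tested in that fit, and the differences were larger, from 0.53 (SE 0.03) for MT-CO3 to 1.26 (SE 0.05) for MT-ND2, with a median of 0.77.

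The tRNAs did not move with the mRNAs as a group. Of the 20 that were tested, 8 were called higher in KOPTK1 and 1 lower, and the median log2 difference was 0.07. The 8 called higher are 40.0% of the 20, near the 32.6% of all genes. The pair with the largest differences of all 35 members tested was MT-TM and MT-TL1. MT-TM, the methionine tRNA that precedes MT-ND2, was at 58.5, 69.1, 57.8, 66.2, 72.0 and 69.4 RPKM in HPB-ALL libraries 7 to 12, at 156, 160.0 and 153 in KOPTK1 libraries 1 to 3 and at 225, 212 and 221 in libraries 4 to 6. Its log2 difference was 1.51 (SE 0.12, 2.85-fold, adjusted p = 2.0e-07 in edgeR) and 1.72 (SE 0.08, 3.31-fold) without libraries 1 to 3. MT-TL1, the leucine (UUR codons) tRNA between MT-RNR2 and MT-ND1, was at 150.2, 142, 143, 149, 175 and 149 RPKM in HPB-ALL libraries 7 to 12, at 307, 335 and 329 in KOPTK1 libraries 1 to 3 and at 468, 483 and 498 in libraries 4 to 6. Its log2 difference was 1.40 (SE 0.13, 2.65-fold, adjusted p = 6.8e-07 in edgeR), and 1.66 (SE 0.06, 3.15-fold) without libraries 1 to 3. For both genes every KOPTK1 library was above every HPB-ALL library, which 22.7% of all tested genes had.

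The other tRNAs called higher had smaller differences. They were MT-TS1 at 0.71 (SE 0.12), MT-TK (lysine) at 0.61 (SE 0.11), MT-TW at 0.58 (SE 0.12), MT-TE (glutamate) at 0.54 (SE 0.14), MT-TQ (glutamine) at 0.52 (SE 0.09) and MT-TT (threonine) at 0.28 (SE 0.08). MT-TE and MT-TT overlapped between the lines in RPKM. In the other 4, every KOPTK1 library was above every HPB-ALL library, which 22.7% of all tested genes had. MT-TA (alanine) was the one called lower, at -0.20 (SE 0.08, adjusted p = 0.049 in edgeR). It was at 151 to 206 RPKM in HPB-ALL and 147 to 186 in KOPTK1, with overlapping ranges, and the call was lost when 1 library was left out in 9 of the 12 cases. The remaining 11 had log2 differences of -0.23 to 0.14 and did not pass the threshold. Without KOPTK1 libraries 1 to 3, MT-TI (isoleucine), at 0.19 (adjusted p = 0.028 in edgeR), and MT-TR (arginine), at 0.18 (adjusted p = 0.037 in edgeR), were called as well, which made 10 called higher, and MT-TA stayed the 1 called lower, where 33.8% of all genes tested were. By strand, 3 of the 8 minus-strand tRNAs (37.5%) and 5 of the 12 plus-strand tRNAs tested (41.7%) were called higher with all libraries. Both shares are near the 32.6% of all genes, so they are no result about strand.

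The rRNAs did not pass the threshold, at -0.35 (SE 0.44, adjusted p = 0.50 in edgeR) for MT-RNR1 and -0.27 (SE 0.50, adjusted p = 0.66 in edgeR) for MT-RNR2. Their direction rested on HPB-ALL library 7: without it, the log2 differences were 0.34 and 0.54 (adjusted p = 0.23 and 0.14 in edgeR). The standard errors with all libraries, 0.44 and 0.50, were near the median difference of the mRNAs, 0.59.

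**Figure D1:**
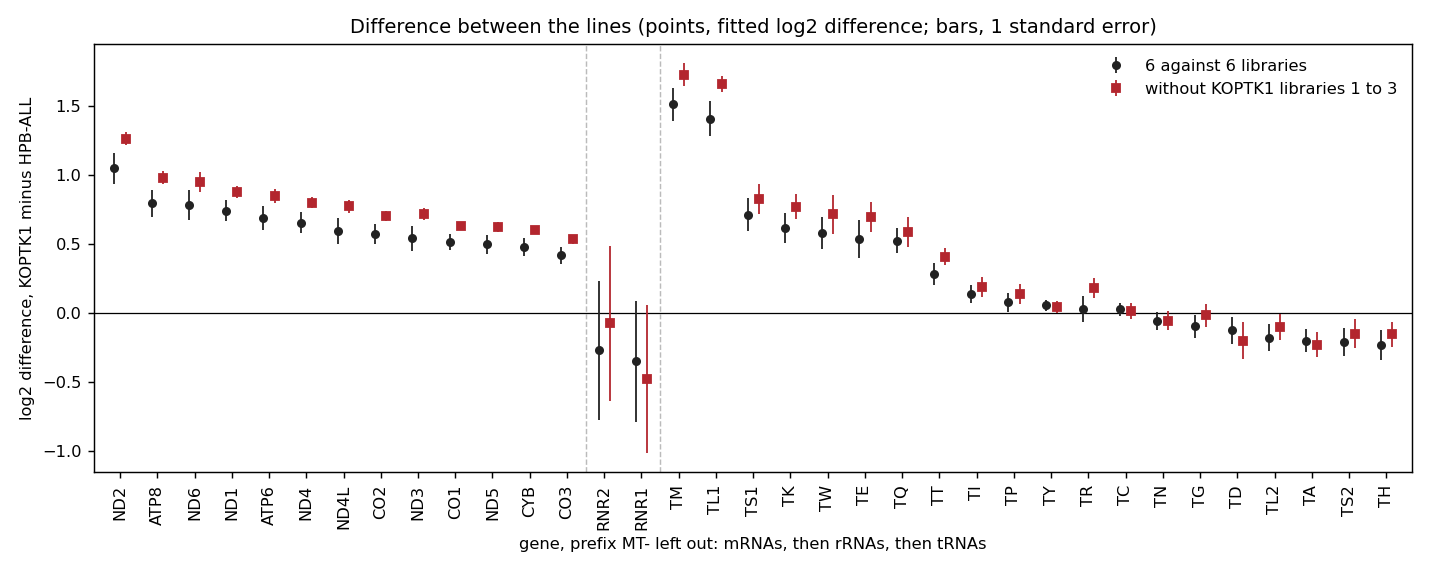
Log2 difference between the lines, KOPTK1 minus HPB-ALL (vertical axis), for the 35 mitochondrial genes tested (horizontal axis, mRNAs, rRNAs and tRNAs separated by dashed lines), with bars of 1 standard error. All 13 mRNAs lie between 0.42 and 1.05 with all libraries, MT-TM and MT-TL1 lie above them, and 11 tRNAs lie between -0.23 and 0.14.

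Because all mRNAs differed in the same direction, the members were also compared within the mitochondrial RNA, with the summed counts of the 13 mRNAs as the library size. This fit was chosen after the values were seen, and it shows unequal differences, not which gene changed. In it, 10.2% of all tested genes were called higher in KOPTK1 and 66.6% lower. Of the mRNAs, 4 were called higher in KOPTK1: MT-ND2 at 0.43 (SE 0.06), MT-ATP8 at 0.19 (SE 0.06), MT-ND6 at 0.18 (SE 0.07) and MT-ND1 at 0.14 (SE 0.05). MT-CO3 at -0.19 (SE 0.05) and MT-CYB at -0.12 (SE 0.05) were called lower. The other 7 mRNAs lay between -0.11 and 0.08 and did not pass. When each of the 12 libraries was left out in turn, the calls of MT-ND1 and MT-ND6 were lost in 7 fits each and that of MT-CYB in 11, whereas MT-ND2, MT-ATP8 and MT-CO3 passed in all 12. The rRNAs MT-RNR1 at -0.90 (SE 0.42) and MT-RNR2 at -0.84 (SE 0.46) did not pass. Without KOPTK1 libraries 1 to 3, MT-CO1 at -0.115, MT-ND5 at -0.123, MT-RNR1 at -1.20 and MT-RNR2 at -0.80 were called lower too. Their adjusted p-values in edgeR were 0.041, 0.031, 0.0029 and 0.043. In that fit, 67.75% of all genes tested were called lower.

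Relative to the mRNAs, 13 of the 20 tRNAs tested were called lower in KOPTK1, with log2 differences of -0.83 for MT-TH (histidine) to -0.32 for MT-TT, and 2 were called higher. The 13 are 65.0% of the 20, near the 66.6% of all genes, and 2 of 20 is likewise near the 10.2% of all genes, so both counts are no result about the tRNAs as a group. The 2 called higher were MT-TM at 0.90 (SE 0.09, adjusted p = 2.4e-06 in edgeR) and MT-TL1 at 0.79 (SE 0.08, adjusted p = 3.5e-06 in edgeR). MT-TS1, MT-TK, MT-TW, MT-TE and MT-TQ were between -0.07 and 0.10 and did not pass. MT-TM and MT-TL1 are the tRNAs that lie just before the mRNAs MT-ND2 and MT-ND1, of which MT-ND2 was the mRNA with the largest difference. Per kilobase, MT-TL1 was at 14.8% to 17.4% of MT-ND1 in HPB-ALL and at 23.1% to 28.3% in KOPTK1. MT-TM was at 7.47% to 10.4% of MT-ND2 in HPB-ALL and at 11.9% to 13.5% in KOPTK1. In contrast, MT-TC was at 24.6% to 30.8% of MT-CO1 in HPB-ALL and at 18.1% to 24.1% in KOPTK1. None of these 3 ratios overlapped between the lines, but they were picked, and the share among all pairs of genes was not counted. That of MT-TS1, which touches MT-CO1, did overlap, at 15.3% to 28.9% in HPB-ALL and 23.7% to 28.8% in KOPTK1. The tRNAs that touch the other ends of MT-ND1 and MT-ND2 were not higher relative to the mRNAs. MT-TI was called lower, at -0.455, and MT-TW, at -0.011, did not pass.

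The same pattern is seen in the share of the 37 genes' counts that each gene took. MT-ND2 took 5.34% to 5.87% of them in HPB-ALL, 6.94% to 7.23% in KOPTK1 libraries 1 to 3 and 7.99% to 8.12% in libraries 4 to 6. MT-TL1 took 0.0795% to 0.0909%, 0.131% to 0.133% and 0.156% to 0.161%. MT-TM took 0.0280% to 0.0367%, 0.0561% to 0.0610% and 0.0633% to 0.0678%. For these 3 genes, KOPTK1 libraries 1 to 3 lay between HPB-ALL and libraries 4 to 6. MT-CO3 took 7.07% to 7.32% in HPB-ALL and 6.12% to 6.53% in KOPTK1. MT-CO1 took 20.7% to 22.7% and 20.1% to 21.4%, which overlapped. The mRNAs of complex I together took 44.2% to 46.3% of the mRNA counts in HPB-ALL and 46.8% to 48.5% in KOPTK1, and those of complex IV took 35.9% to 38.0% and 33.8% to 35.8%. MT-CYB, the mRNA for complex III, took 9.06% to 9.33% and 8.31% to 8.63%. None of these 3 overlapped, and the mRNAs of complex V, at 8.29% to 9.15% and 8.85% to 9.41%, did. The shares of the complexes are parts of 1 whole, so they depend on each other. Taken singly, 19 of the 37 genes did not overlap in their share of the 37 genes' counts.

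**Figure D2:**
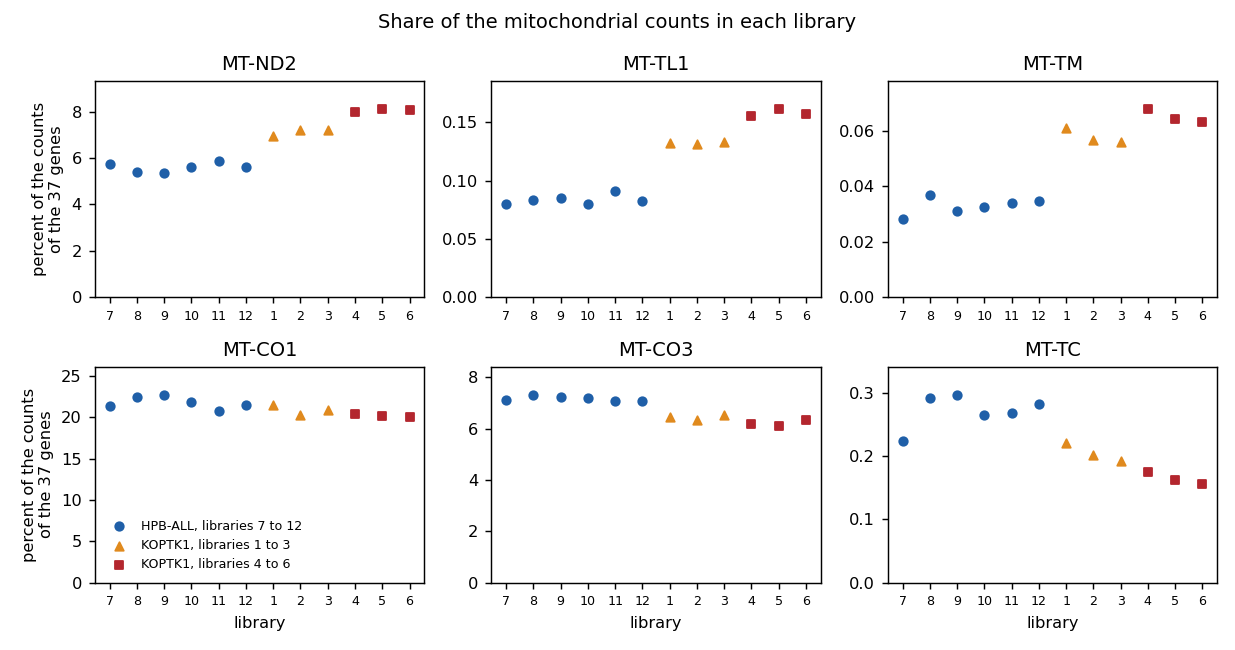
Share of the summed counts of the 37 genes (vertical axes, percent, from 0) taken by 6 of them in each library (horizontal axes, by column number). MT-ND2, MT-TL1 and MT-TM are higher in all KOPTK1 libraries, MT-CO3 and MT-TC are lower, and MT-CO1, at 20.1% to 22.7%, overlaps between the lines.

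The nuclear genome holds many stretches copied from mitochondrial DNA, and reads of the mitochondrial genes can map to them. By symbol, 408 such copies were in the tables (MTTP, which matches the same letters and encodes a lipid transfer protein, was left out), and 39 had a median of at least 1 CPM. Together the copies took 0.0347% to 0.0393% of all counts in HPB-ALL and 0.0587% to 0.0839% in KOPTK1. Of the 79 that were tested, 44 were called higher in KOPTK1 (55.7%, against 32.6% of all genes), 1 lower, and the median log2 difference was 0.47. The 4 highest, MTND2P28, MTCO1P12, MTATP6P1 and MTND1P23, lie together on chromosome 1 in the tables, in the span chr1:629062-634376 (hg38).

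Of these, MTND2P28, whose transcript was 98.4% identical to MT-ND2 over 1042 aligned bases, was at 132 to 148 CPM in HPB-ALL and 179 to 239 in KOPTK1, a log2 difference of 0.58 (SE 0.08). MTCO1P12, 98.6% identical to MT-CO1, was at 75.2 to 86.8 CPM in HPB-ALL and 101 to 124 in KOPTK1, a log2 difference of 0.47 (SE 0.06), close to the 0.51 of MT-CO1. MTATP6P1, 98.5% identical to MT-ATP6, was at 51.5 to 65.4 and 93.7 to 153 CPM, a log2 difference of 1.18 (SE 0.11), where MT-ATP6 had 0.69. The fifth, MTND5P11 on chromosome 5, which was 93.0% identical to MT-ND5, was at 5.67 to 7.34 and 4.46 to 8.43 CPM and did not pass the threshold (log2 difference 0.10, SE 0.14, adjusted p = 0.52 in edgeR), and was called without KOPTK1 libraries 1 to 3 (0.27, adjusted p = 0.019 in edgeR). Set against the counts of its mitochondrial counterpart, MTND2P28 had 16.1% to 20.3% of those of MT-ND2 in HPB-ALL and 12.4% to 14.9% in KOPTK1, whereas MTCO1P12 had 2.49% to 2.89% and 2.59% to 2.75% of those of MT-CO1. How reads that match both places were assigned is not given in the sources used here, so the counts of these copies and of the mitochondrial genes could not be separated with certainty.

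MTND1P23 differed from the rest. It had 47.0 to 65.0 counts in HPB-ALL libraries 7 to 9, 278 to 384 in libraries 10 to 12, 3091 to 3685 in KOPTK1 libraries 1 to 3 and 4116 to 4536 in libraries 4 to 6. In CPM this was 1.12 to 1.57, 6.65 to 9.44, 88.9 to 103 and 174 to 179.9. The log2 difference was 4.90 (SE 0.46, 29.8-fold, adjusted p = 9.2e-07 in edgeR), and it was 5.26 (SE 0.28, 38.2-fold) without KOPTK1 libraries 1 to 3 and 6.98 (SE 0.07, 126-fold) without these and HPB-ALL libraries 10 to 12. The steps between the sets of libraries went the same way as those of the 17 genes of high KOPTK1 level described above. MTND1P23 matches bases 608 to 956 of MT-ND1 with 2 differences in 349 aligned bases (99.4% identity). Its counts were 0.140% to 0.981% of those of MT-ND1 in HPB-ALL and 7.20% to 10.7% in KOPTK1. The stretch of 90 bases around the first difference is shown, with the differing base in capitals, because it shows how nearly a read of 1 gene matches the other.
MT-ND1, bases 697 to 786 of the transcript: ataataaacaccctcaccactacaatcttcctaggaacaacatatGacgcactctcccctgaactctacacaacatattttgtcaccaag
MTND1P23, bases 112 to 201 of the transcript: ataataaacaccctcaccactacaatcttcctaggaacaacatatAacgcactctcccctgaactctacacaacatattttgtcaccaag

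All factors that transcribe, copy, cut, protect and modify mitochondrial RNA are encoded in the nucleus. A list of 55 such genes in 5 classes was compared in the same fit, and all 55 were tested. In contrast to the mitochondrial mRNAs, 12 were called higher in KOPTK1 (21.8%, against 32.6% of all genes) and 35 lower (63.6%, against 31.3%), with a median log2 difference of -0.21, where that of all genes was 0.02. Without KOPTK1 libraries 1 to 3, 14 were higher (25.5%, against 34.2% of all genes) and 36 lower (65.5%, against 33.8%). The calls that changed were those of POLRMT, LACTB2 and FASTKD3.

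Among the 9 genes of transcription, 4 were higher (44.4%, against 32.6% of all genes) and 3 lower (33.3%, against 31.3%). POLRMT, the mitochondrial RNA polymerase, was at 17.6 to 18.9 RPKM in HPB-ALL and 16.4 to 20.5 in KOPTK1, with a log2 difference of 0.06 (SE 0.05) that did not pass. POLRMT was called higher without KOPTK1 libraries 1 to 3, at 0.12 (SE 0.04, adjusted p = 0.0071 in edgeR). TFAM, which bends and packages the mitochondrial DNA and is needed to start transcription, was at 17.9 to 18.9 RPKM in HPB-ALL and 12.52 to 15.67 in KOPTK1, a log2 difference of -0.37 (SE 0.05, adjusted p = 2.8e-05 in edgeR). MTERF3, the highest of the class, had a log2 difference of 0.13 (SE 0.04). The 3 lowest were MTERF1, which binds within MT-TL1 and can end transcription there, at 0.73 (SE 0.08), the elongation factor TEFM at 0.25 (SE 0.07) and MTERF2 at 0.88 (SE 0.11), and all 3 were called higher. MTERF1 was at 6.24 to 6.78 RPKM in HPB-ALL and 9.31 to 12.6 in KOPTK1.

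Among the 8 genes of replication, 4 were higher and 3 lower. The 3 of highest level were SSBP1, the single-strand binding protein, at 0.21 (SE 0.04), POLG, the DNA polymerase, at -0.26 (SE 0.04) and RNASEH1 at -0.67 (SE 0.12). The 3 lowest were POLG2, the accessory subunit of the polymerase, at 0.34 (SE 0.06), the helicase TWNK at 0.02 (SE 0.06), which did not pass, and PRIMPOL at -0.28 (SE 0.04). TOP1MT, the mitochondrial topoisomerase, lay between them in level and had the largest increase of the list, at 1.11 (SE 0.09), with 15.4 to 17.3 RPKM in HPB-ALL and 29.2 to 41.4 in KOPTK1.

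The 5 genes of transcript processing cut the tRNAs out of the long RNAs or degrade unneeded ends. HSD17B10, TRMT10C and PRORP are the subunits of the mitochondrial RNase P, which cuts before a tRNA, and ELAC2 cuts after it. All 4 were lower in KOPTK1, which is 80.0% of the class, against 31.3% of all genes. HSD17B10 was at -0.51 (SE 0.07), ELAC2 at -0.48 (SE 0.08), PRORP at -0.24 (SE 0.04) and TRMT10C at -0.21 (SE 0.05). LACTB2, at 0.20 (SE 0.11), did not pass. LACTB2 was called higher without KOPTK1 libraries 1 to 3, at 0.29 (SE 0.12, adjusted p = 0.038 in edgeR). HSD17B10 was at 65.8 to 71.1 RPKM in HPB-ALL and 41.1 to 54.7 in KOPTK1, and ELAC2 at 38.5 to 43.0 and 24.6 to 33.3.

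Of the 15 genes of RNA stability and decay, 2 were higher (13.3%, against 32.6% of all genes) and 10 lower (66.7%, against 31.3%). LRPPRC, which together with SLIRP keeps mitochondrial mRNAs stable, had the highest level and a log2 difference of 0.24 (SE 0.04), while SLIRP had -0.29 (SE 0.05) and TBRG4 -0.20 (SE 0.04). The 3 lowest in level were ANGEL2 at -0.05 (SE 0.04) and FASTKD3 at -0.10 (SE 0.06), which did not pass, and PDE12, which removes poly(A) tails, at -0.11 (SE 0.03). FASTKD3 was called lower without KOPTK1 libraries 1 to 3, at -0.17 (SE 0.06, adjusted p = 0.018 in edgeR). Of the 18 genes of RNA modification, 2 were higher (11.1%, against 32.6% of all genes) and 15 lower (83.3%, against 31.3%). The 3 highest were NSUN2 at -0.45 (SE 0.06), RPUSD3 at -0.28 (SE 0.07) and TRIT1 at -0.45 (SE 0.06). The 3 lowest were TRMT5 at -0.22 (SE 0.05), NSUN4 at 0.11 (SE 0.05) and METTL15 at -0.16 (SE 0.04). MTO1, which modifies the wobble base of several mitochondrial tRNAs, had the lowest difference of the list, at -1.20 (SE 0.18), with 9.27 to 9.93 RPKM in HPB-ALL and 2.72 to 5.70 in KOPTK1, of which libraries 4 to 6 were at 2.72 to 2.91. Without KOPTK1 libraries 1 to 3, the difference of MTO1 was -1.79 (SE 0.04). All standard errors and calls in these classes are from the edgeR fit of 6 against 6 libraries.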

How the data were processed

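RNA-Seq was analysed from 12 libraries of HPB-ALL and KOPTK1 cells. The submitters' processing notes name Trimmomatic 0.36, STAR 2.5.4b, Picard 2.18.7, featureCounts 1.6.2, edgeR 3.22.3 and hg38, with no role or order. The methods give the TruSeq RNA Library Prep Kit v2, which does not mark strand. The authors deposited 1 table per line with 6 library columns of estimated counts, which were not whole for many genes and were rounded for the tests. How reads were shared between genes is not given in the sources used here. The deposited average log2 CPM of each table was used only as an alternative level. The columns of the authors' own comparison (fold change, F statistic, p-value and FDR) were not used. Column numbers matched no sample label, so columns were placed with a line only, and all 12 were used.

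RPKM was computed as counts per 1000000 of a library's summed counts and per kilobase of summed exon length. The lines were compared with edgeR 4.0.16 in R 4.3.3 (filterByExpr, TMM, glmQLFit and glmQLFTest, with Benjamini-Hochberg adjustment over all genes tested, threshold 0.05). Standard errors were derived from the log2 difference and its F. Transcripts were aligned with Biopython 1.88 (local alignment). The test was checked on simulated data for this comparison (28076 genes tested, a small part of them changed): it called 98% of those given a log2 difference of 1 and 75% of those given 0.5, and 2.81% of its calls were false. The changed genes were not of low count, all genes had equal dispersion, and the libraries of a line had no split. These rates may therefore not hold for the real libraries. Symbols were matched to 95.9% of identifiers. All 37 members are named or grouped, each mRNA and rRNA with its values and the tRNAs by level and call. Nuclear copies and factors were named by level within each list, and TOP1MT and MTO1 were named after their values were seen. The members and lists were chosen with earlier results of these data known. Counts per library were 22884785 to 42842791, and floors cover counting error only. Alternatives were DESeq2 size factors, scaling without mitochondrial and rRNA genes, no filter, DESeq2 1.42.0, leaving out each library, the authors' average log2 CPM, ranks by count and shares of the other genes' counts. Fits without KOPTK1 libraries 1 to 3, without these and HPB-ALL libraries 10 to 12, and relative to the mRNAs were added after the data were seen. Python 3.11.15 and scipy 1.17.1 were used.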

Additional observations from a re-analysis of the deposited data

Results flagged for a closer look

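In 10 of 87 groups of 6 libraries, 1 library lay far from the other 5 by Dixon's criterion (a gap to its nearest neighbour of over 0.625 of the range). Chance gives about 1 in 20 groups if they are independent. These groups share libraries and transcripts, so their count cannot be set against that rate. HPB-ALL library 7 accounted for 6 of the 10. It was the highest for both rRNAs, MT-RNR1 at 3.95 RPKM where the other 5 were at 0.477 to 1.30, and MT-RNR2 at 4.09 where the others were at 0.529 to 1.08. It was the lowest for a run of 4 neighbouring minus-strand tRNAs, MT-TA at 151 RPKM (others 193 to 206), MT-TN at 281 (others 348 to 364), MT-TC at 483 (others 561 to 588) and MT-TY at 536 (others 594 to 616).

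KOPTK1 library 3 was the lowest for MT-TH, at 132 RPKM (others 178 to 202), and for MT-TL2, at 93.8 RPKM (others 122 to 137). HPB-ALL library 11 was the highest for MT-TL1, at 175 RPKM (others 142 to 150.2). HPB-ALL library 8 was the highest for MT-TF, at 1.95 RPKM (others 0 to 0.679), which rests on 5.83 counts. The part of depth, shRNA or handling in these values was not tested.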

How the results depend on the processing

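All 13 mRNAs were called higher in KOPTK1 under every alternative run, the fits that left out 1 library included. The 8 tRNAs called higher became 8 to 9 when 1 library was left out. The 1 tRNA called lower became 0 when mitochondrial and rRNA genes were kept out of the scaling, 2 with no filter, 2 with DESeq2, 0 without KOPTK1 libraries 1 to 3 and HPB-ALL libraries 10 to 12, and 0 to 3 with 1 library left out. Relative to the mRNAs, the 4 mRNAs called higher became 2 with no filter and 2 to 4 with 1 library left out. The 2 called lower became 1 with no filter, 4 without KOPTK1 libraries 1 to 3 and 1 to 2 with 1 library left out. The 0 rRNAs called lower became 2 without KOPTK1 libraries 1 to 3, 2 also without HPB-ALL libraries 10 to 12, and 0 to 1 with 1 library left out. The cause of these changes was not tested.

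Directions turned only where values did not pass the threshold. With 1 library left out, the log2 difference ran from -0.525 to 0.341 for MT-RNR1, from -0.481 to 0.543 for MT-RNR2, from -0.008 to 0.043 for MT-TC and from -0.016 to 0.089 for MT-TR, and relative to the mRNAs from -0.055 to 0.034 for MT-TW and from -0.031 to 0.056 for MT-TK. With no filter it was -0.031 for MT-TC, -0.001 for MT-TY and -0.027 for MT-TR. Without KOPTK1 libraries 1 to 3 and HPB-ALL libraries 10 to 12 it was 0.069 for MT-TG and, relative to the mRNAs, 0.062 for MT-TW, 0.005 for MT-ND3, 0.059 for MT-ND4L and 0.113 for MT-TE. Relative to the mRNAs and without KOPTK1 libraries 1 to 3, it was 0.028 for MT-ND4L. No paired analysis was possible because the library columns carry neither a replicate number nor an shRNA. Counts, and so counting precision, were lowest for MT-TV, MT-TF and the rRNAs.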
